A study of Mus musculus with 16 samples.

Results

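miR-138 is a microRNA that mouse cells make from a pair of hairpins, Mir138-1 and Mir138-2. Its arms were followed in small RNA libraries of dendritic cells grown from mouse bone marrow. All table names that begin with miR-138 were taken, which gave 3 of 1377 names: mmu-miR-138-5p, mmu-miR-138-1-3p and mmu-miR-138-2-3p (mmu stands for mouse and is left off below). The set was chosen by measured values: the quercetin difference of miR-138 and the LPS difference of its passenger arm. Values of those contrasts are therefore given for miR-138-5p and miR-138-1-3p as a description, with no test.

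The study compared 4 groups of 4 libraries, with each of 4 wild-type C57BL/6 mice (male wherever the labels give the sex) giving 1 library per group. Control cultures were unstimulated, with no vehicle named. LPS cultures were exposed on day 8 to lipopolysaccharide, which TLR4 recognises, for 6 h at 1 µg/mL, and quercetin cultures received the plant flavonol quercetin (aglycone) at 25 µM on days 5 and 7. The fourth group received quercetin and then LPS on the same days and at the same concentrations. Mice 1 to 3 were 8 weeks old and mouse 4 was 7 weeks old, and red blood cells had been lysed before culture in every group. The labels describe no sort, and their culture text breaks off before any growth factor is named, so the libraries may hold any cell of the cultures.

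A microRNA hairpin is cut by Drosha and Dicer into a short duplex. One strand, the guide, is loaded into Argonaute and directs it to target mRNAs through the seed, bases 2 to 8, while the other, the passenger, is mostly degraded. miR-138 is best known from neurons, where it lies in dendritic spines, targets Lypla1 (a protein depalmitoylating enzyme) and restrains spine growth. Its precursor from Mir138-2 has been described as present in many tissues that lack the mature form.

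The mature sequences are shown because they decide which hairpin a read can be traced to. They are from RefSeq (build GRCm38.p6), 5′ to 3′, with the seed in capitals.
miR-138-5p: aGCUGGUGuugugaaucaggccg
miR-138-1-3p: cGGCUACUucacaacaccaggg
miR-138-2-3p: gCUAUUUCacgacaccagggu
miR-138-5p is identical in both hairpins, so its reads cannot be assigned to either. The 3p arms differ. Shifted by 2 bases against each other they align over 20 bases, of which 18 are identical, and the differences are C7U and A13G, counted from 1 at the 5′ end of miR-138-1-3p with its base first. The seeds of the 3 arms all differ. No other of the 1679 mature names in the RefSeq table shares any of them.

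The hairpins are shown with their mature arms in capitals.
Mir138-1: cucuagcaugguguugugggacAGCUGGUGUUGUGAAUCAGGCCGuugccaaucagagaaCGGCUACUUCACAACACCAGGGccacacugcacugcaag
Mir138-2: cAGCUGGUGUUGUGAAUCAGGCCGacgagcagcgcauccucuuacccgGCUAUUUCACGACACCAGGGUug
Mir138-1 lies at chr9:122682876-122682974 on the plus strand (GRCm38.p6), within exon 1 of Gm47135, a transcribed unprocessed pseudogene on the same strand in GENCODE vM21. Mir138-2 lies at chr8:94324311-94324381 on the plus strand, within the single annotated exon of the long noncoding RNA C78859. The nearest other RefSeq hairpin is 1727729 bases from Mir138-1 (Mir7090) and 180665 bases from Mir138-2 (Mir7072). Outside the shared 5p arm, only miR-138-1-3p and miR-138-2-3p thus tell the hairpins apart.

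Library totals lay between 6454535 and 13943904 counts, lower with quercetin (6454535 to 9035375) than without it (8660267 to 13943904, overlapping). The part of depth in the results was not tested. All 3 arms were among the 568 miRNAs that passed the low-count filter and were tested. In each group 1 library scored highest on the second principal component: mouse 3 among controls and mouse 4 elsewhere. The blood-cell miRNA miR-155-5p held between 3.51% and 4.37% of counts in the group means. The neuronal miRNA miR-124-3p had 60 counts over all 16 libraries, at most 12 in any of them, while miR-153-3p had 20 and miR-137-3p had 1. miR-9-5p, which is high in neurons but is also known from TLR-stimulated monocytes, reached 1408 to 3593 CPM (counts scaled by TMM to a common library size). Dendritic cell mRNA markers cannot be read from these libraries.

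The guide arm miR-138-5p was lower in both groups given quercetin. It stood at 259.6, 189.6, 257 and 554 CPM in control mice 1 to 4, and at 47.5, 81.7, 65.3 and 55.2 CPM with quercetin. The groups did not overlap, and the level was lower in 4 of 4 mice, by 2.32-fold in mouse 2 to 10.03-fold in mouse 4. The means were 315 ± 162 and 62.4 ± 14.7 CPM (SD, n = 4), and the fitted log2 fold change was -2.33 ± 0.54 (SE), 5.04-fold lower. After LPS the arm stood at 230.4, 171, 343 and 193 CPM, against 13.3, 92.6, 73.8 and 16.3 CPM after quercetin and LPS. These groups did not overlap either, and the log2 fold change was -2.26 ± 0.54, lower in 4 of 4 mice.

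The spread of miR-138-5p was widest in quercetin plus LPS. There mice 1 and 4 lay at 13.3 and 16.3 CPM and mice 2 and 3 at 92.6 and 73.8 CPM, a 6.97-fold range, against 1.72-fold with quercetin alone, 2.01-fold with LPS and 2.92-fold in controls. The low values rest on 129 and 121 counts, the high ones on 797 and 567. Control mouse 4, with 6396 counts, was the highest of all 16 libraries.

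**Figure D1:**
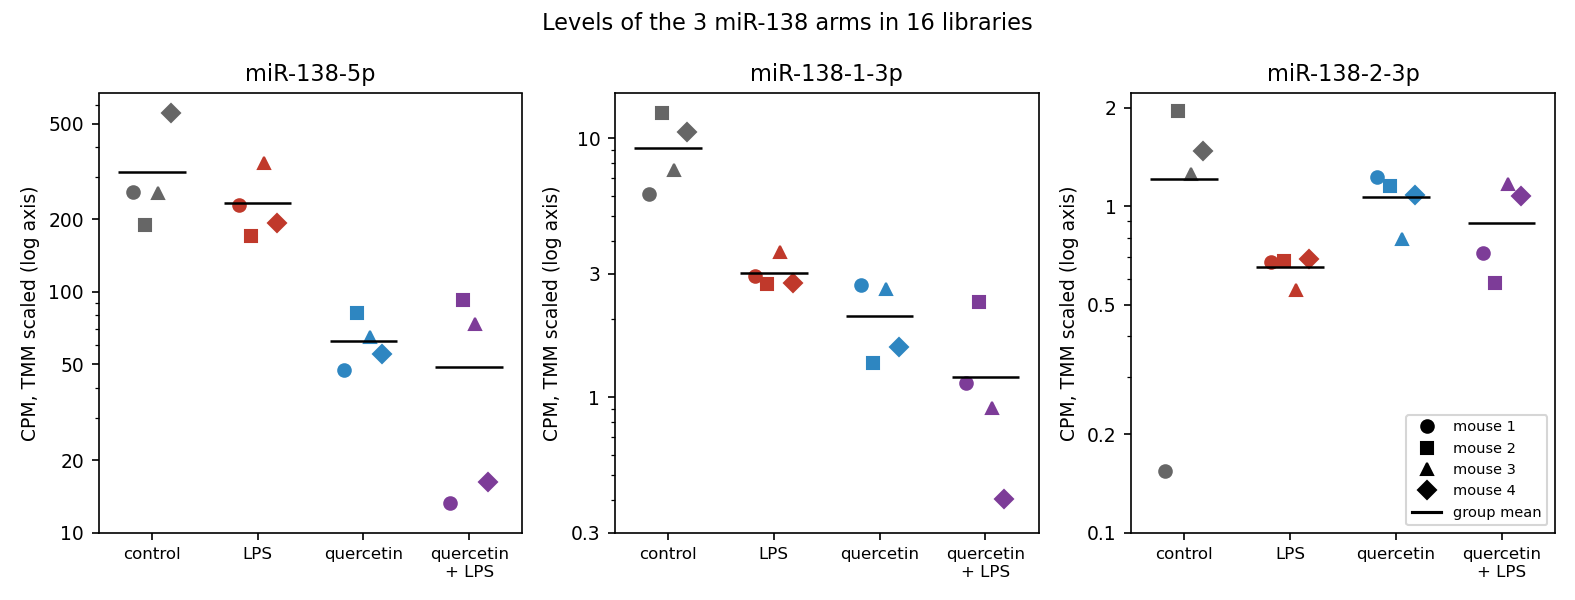
Levels of the 3 arms in each library, in CPM on log axes with a separate range for each arm. Symbols stand for mice and lines for group means. All quercetin values of miR-138-5p and miR-138-1-3p lie below all values of the matching group without quercetin, and miR-138-2-3p overlaps in both cases.

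miR-138-1-3p, the passenger arm of Mir138-1, was scarcer and was highest in untreated cells. It stood at 6.11, 12.5, 7.54 and 10.6 CPM in controls (60 to 122 counts) and at 2.71, 1.36, 2.61 and 1.56 CPM with quercetin (13 to 23 counts). The log2 fold change was -2.15 ± 0.39, 4.45-fold lower, and the groups did not overlap. After LPS it stood at 2.95, 2.73, 3.65 and 2.76 CPM (24 to 46 counts), against 1.13, 2.32, 0.911 and 0.404 CPM after quercetin and LPS (3 to 20 counts). That log2 fold change was -1.32 ± 0.41, again without overlap, though mouse 2 differed by only 1.17-fold.

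miR-138-2-3p, the passenger arm of Mir138-2, had very few reads and overlapping groups in each comparison. It stood at 0.155, 1.95, 1.26 and 1.47 CPM in controls and at 1.23, 1.15, 0.794 and 1.08 CPM with quercetin, from 2 to 19 and from 7 to 11 counts. The level was lower with quercetin in 3 of 4 mice, and the groups overlapped, with means of 1.21 ± 0.760 and 1.06 ± 0.190 CPM (SD, n = 4). Its log2 fold change was -0.16 ± 0.49 for quercetin against control and 0.43 ± 0.53 for quercetin plus LPS against LPS. The control spread came from mouse 1, where 2 counts were found beside 10 to 19 in the others. Without that library the log2 fold change was -0.52 ± 0.33 with quercetin and -1.29 ± 0.34 with LPS. Whether the quercetin difference of the 3p arms itself differs was not tested, since miR-138-1-3p was chosen for its quercetin difference.

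As background, 11.1% of the tested miRNAs lay lower without overlap in quercetin against control, and 13.4% in quercetin plus LPS against LPS; of the members 2 of 3 did so in each. edgeR called 8.98% and 14.3% lower, and 6.87% and 8.63% higher, at an adjusted p under 0.05. Since the quercetin contrasts chose the members, nothing is read from these counts. In rank from the lowest of 568 fold changes, miR-138-5p was at 7 and 16, miR-138-1-3p at 10 and 65, and miR-138-2-3p at 239 and 442. The comparisons share no library with each other, but the cultures come from the same mice.

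**Figure D2:**
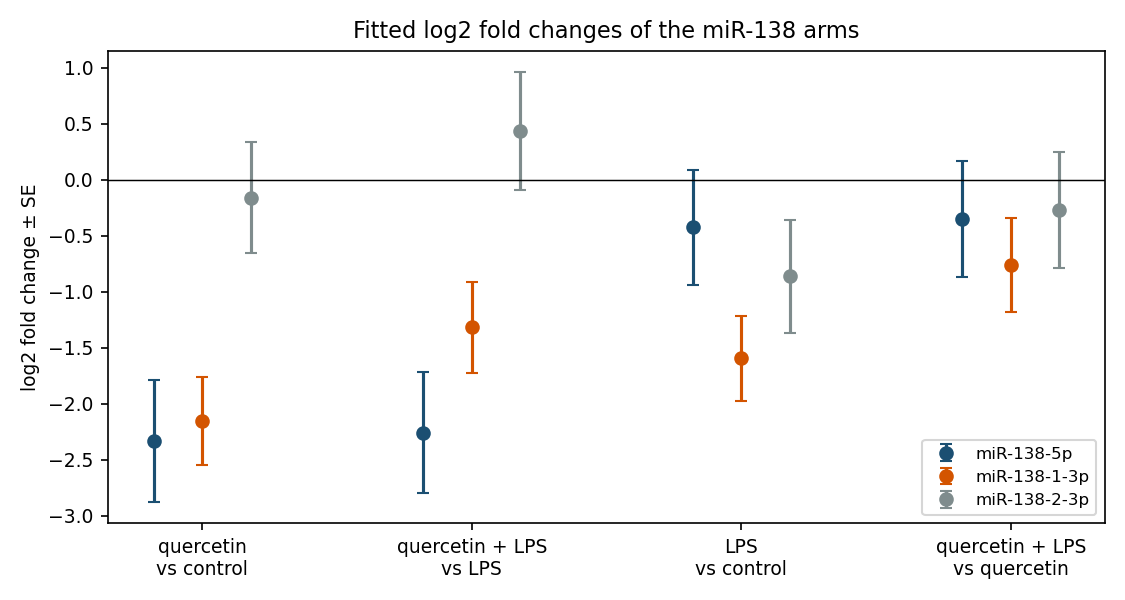
Fitted log2 fold changes of each arm in 4 comparisons, with error bars of 1 SE from the edgeR fit. miR-138-5p lies at -2.33 and -2.26 in the quercetin comparisons and at -0.43 and -0.35 in the LPS comparisons, while miR-138-1-3p is below 0 in each of them.

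LPS was the other treatment, and here the passenger arm of Mir138-1 lay further below control than the guide arm. miR-138-5p was at 315 ± 162 CPM in controls and 234 ± 76.7 CPM after LPS (SD, n = 4), with overlapping groups, lower in 3 of 4 mice. Its log2 fold change was -0.43 ± 0.52 and did not pass (edgeR adjusted p = 1.00). Without the 7-week-old mouse it was 0.08. The rule used this contrast for the passenger arm only. That arm, miR-138-1-3p, went from 9.18 ± 2.90 to 3.02 ± 0.429 CPM, a log2 fold change of -1.60 ± 0.38, lower in 4 of 4 mice by 2.07-fold to 4.59-fold. The groups did not overlap, as was the case, in the lower direction, for 1.06% of the tested miRNAs. miR-138-2-3p lay at -0.86 ± 0.51, lower in 3 of 4 mice, with overlap.

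In cells already given quercetin, LPS left miR-138-5p at 49.0 ± 40.2 CPM against 62.4 ± 14.7 CPM without LPS (SD, n = 4). It was lower in mice 1 and 4 and slightly higher in mice 2 and 3, and the log2 fold change of -0.35 ± 0.52 did not pass (edgeR adjusted p = 0.845). In this comparison 0.352% of the tested miRNAs were called in either direction. The difference between the LPS responses with and without quercetin was 0.08 ± 0.73 for miR-138-5p (edgeR interaction, adjusted p = 0.979), or -0.03 with the mouse as a block. With an SE of this size the difference is loosely bounded. It is also the difference between the quercetin contrasts with and without LPS, which chose this arm, so nothing is concluded from it. Of all tested miRNAs edgeR called 0% for the interaction, and 4.58% had an unadjusted p under 0.05. miR-138-1-3p was at 2.06 ± 0.697 CPM with quercetin and 1.19 ± 0.813 CPM after quercetin and LPS, a log2 fold change of -0.76 ± 0.42, lower in 3 of 4 mice.

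The order of group means was thus control, LPS, quercetin, quercetin plus LPS for both miR-138-5p and miR-138-1-3p. For miR-138-5p, control and LPS differed by 80.5 CPM, less than the control SD of 162, and quercetin and quercetin plus LPS by 13.4 CPM, less than the SD of 40.2. Only the step of 172 CPM from LPS to quercetin exceeded both SDs. For miR-138-1-3p the first step, 6.16 CPM, was the widest, and the second, 0.961 CPM, also separated the groups. The last, 0.867 CPM, was just above the larger SD of 0.813 CPM, but the groups overlapped. No neighbours in the order of miR-138-2-3p (control, quercetin, quercetin plus LPS, LPS) differed by more than the larger SD.

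The share of miR-138-1-3p among its own and the 5p counts is built from the same values that chose the set, and it is given as a description only. In controls it was 2.30%, 6.20%, 2.85% and 1.87%, and after LPS 1.26%, 1.57%, 1.05% and 1.41%. The groups did not overlap, with means of 3.31% ± 1.97 and 1.32% ± 0.221 (SD, n = 4). With quercetin the share was 3.41% ± 1.60 and with quercetin plus LPS 3.49% ± 2.97, both overlapping the control range; without quercetin plus LPS 1 the latter mean was 2.03%. Wilson 95% intervals ran from 5.21% to 7.35% in control 2 and from 1.57% to 2.23% in control 4, so controls differed from each other beyond counting error. They cover counting error only. In quercetin plus LPS 1 the share of 7.86% (4.44% to 13.5%) rests on 11 of 140 counts.

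Between the 3p arms, miR-138-1-3p held most reads in untreated cells; this share too rests on its quercetin and LPS values and is a description. Its share of both 3p arms was 97.5%, 86.5%, 85.7% and 87.8% in controls, 81.4%, 80.0%, 86.8% and 80.0% after LPS, and 68.8%, 54.2%, 76.7% and 59.1% with quercetin. It was 61.1%, 80.0%, 43.8% and 27.3% after quercetin and LPS. Every quercetin value was below every value of the controls and of the LPS group, whereas quercetin plus LPS 2 lay within the LPS range. The means over mice were 89.4% ± 5.50 in controls, 82.05% ± 3.23 after LPS, 64.7% ± 10.03 with quercetin and 53.0% ± 22.7 after quercetin and LPS (SD, n = 4).

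**Figure D3:**
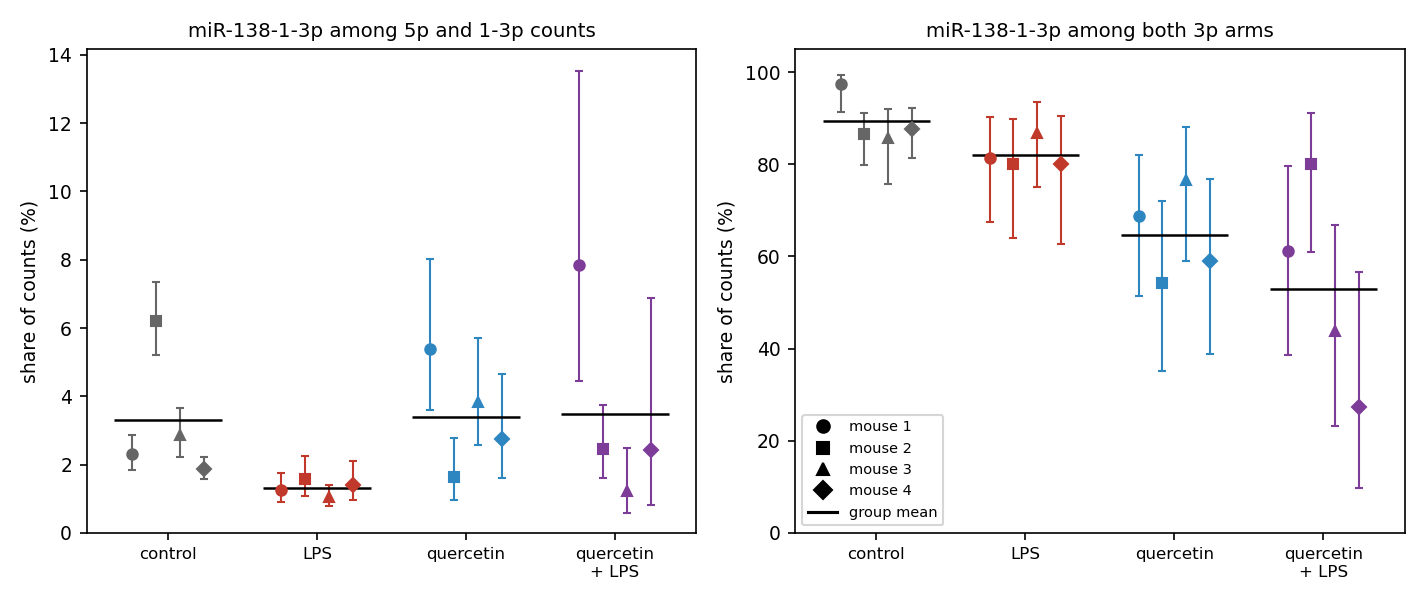
Share of miR-138-1-3p in each library, left among the counts of miR-138-5p and miR-138-1-3p and right among both 3p arms, with Wilson 95% intervals (counting error only), symbols for mice and lines for group means. On the left the LPS libraries, at 1.05% to 1.57%, lie below all controls, and on the right the quercetin libraries, at 54.2% to 76.7%, lie below all controls.

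The arms were set beside those of 150 other hairpins with both arms tested, taking the more abundant arm as the guide. Hairpins were paired by name, so names with the same counts, such as miR-486a and miR-486b, were each counted. The miR-138 guide also holds reads of Mir138-2, and miR-138 was chosen for its passenger arm, so its place among the hairpins supports nothing. The log2 fold change of miR-138-1-3p minus that of miR-138-5p was -1.17 in LPS against control, where the 150 hairpins had a median of -0.06 (SD 0.46). It was 0.18 in quercetin against control (median -0.24, SD 0.66). In quercetin plus LPS against LPS it was 0.94 (median -0.20, SD 0.79), with 135 of the 150 hairpins lower. In quercetin plus LPS against quercetin it was -0.41 (median -0.10, SD 0.62). In quercetin against control, edgeR called both arms lower in 7 of the 150 hairpins (4.67%): miR-132, miR-147, miR-212, miR-222, miR-27a, miR-342 and miR-34c. The number was 11 (7.33%) in quercetin plus LPS against LPS. It was 0 in LPS against control and in quercetin plus LPS against quercetin.

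**Figure D4:**
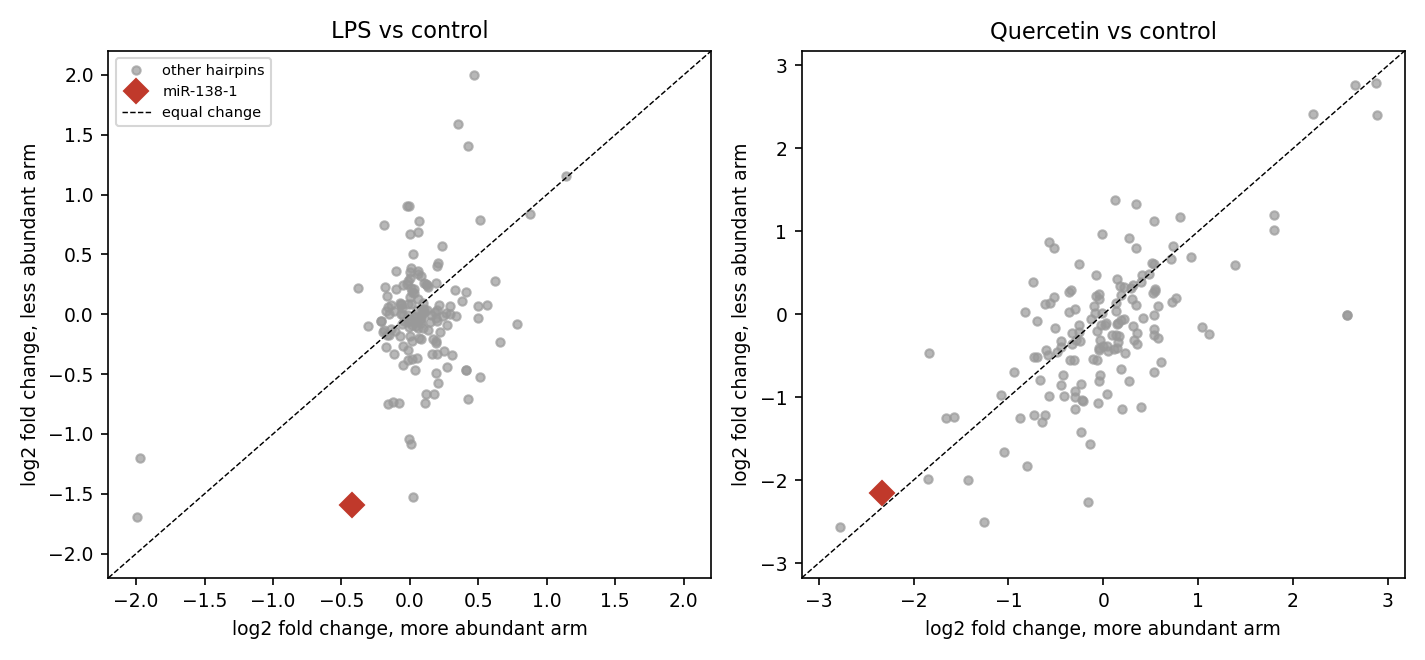
Log2 fold changes of the less abundant arm against the more abundant arm for miR-138-1 and 150 other hairpins; the dashed line marks equal change. With LPS miR-138-1 lies 1.17 below the line, and with quercetin it lies near the line at the low end of both axes.

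The miRNAs most like miR-138-5p over the 16 libraries, by Pearson's r of log2 CPM, were miR-6539 (0.93), miR-31-5p (0.92), miR-449c-5p (0.92), miR-147-3p (0.90) and miR-34c-5p (0.89). Their log2 fold changes lay between -3.28 (miR-6539) and -1.07 (miR-34c-5p) with quercetin and between -0.49 (miR-449c-5p) and 0.22 (miR-31-5p) with LPS. miR-147-3p, a TLR-responsive miRNA, was by far the most abundant of them, at 2488 ± 616 CPM in controls and 789 ± 84.7 CPM with quercetin (SD, n = 4). These correlations describe libraries that share the same treatments, mice and scaling.

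For miR-138-1-3p the closest were miR-27a-5p (r = 0.92) and miR-342-5p (0.86), the less abundant arms of their own hairpins, then miR-6539 (0.82), miR-664-5p (0.81) and miR-138-5p itself (0.80). miR-27a-5p was at 85.9 ± 18.7, 40.6 ± 7.61, 34.9 ± 7.34 and 15.01 ± 8.94 CPM in control, LPS, quercetin, and quercetin plus LPS (SD, n = 4), the same order of means as miR-138-1-3p. miR-138-2-3p had an r of -0.12 to miR-138-5p and 0.07 to miR-138-1-3p. It was most like let-7b-3p (0.61), let-7d-3p (0.59), miR-6952-3p (0.56), miR-455-3p (0.55) and miR-125b-1-3p (0.52), all weak on so few reads.

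Within groups, the deviations of miR-138-5p and miR-138-1-3p from their group means had r = 0.42 over 16 libraries. Those of miR-138-5p were most like miR-1956 (0.93), miR-188-5p (0.92) and miR-106b-3p (0.91), and those of miR-138-1-3p like miR-676-3p (0.78), miR-92a-3p (0.77) and miR-5107-5p (0.75). For miR-138-2-3p they were miR-455-3p (0.74), let-7c-1-3p (0.69) and miR-7011-3p (0.69). Deviations of miR-138-5p also ran with the second principal component (r = -0.71, Spearman's rho = -0.56), and those of miR-138-1-3p less closely (-0.58 and -0.46). In quercetin plus LPS, mice 1 and 4 had the highest scores and the lowest miR-138-5p. The part of this component in the spread was not tested. Without the library that scored highest on it in each group, the quercetin difference of miR-138-5p was -2.37 without LPS and -2.05 with LPS, and that of miR-138-1-3p -2.13 and -1.08. Quercetin plus LPS 1 also deviated upward on the component, by more than quercetin 4. Without it as well, the differences were -2.33 and -1.56 for miR-138-5p and -2.10 and -0.90 for miR-138-1-3p, and quercetin plus LPS against quercetin went to 0.33 for miR-138-5p.

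**Figure D5:**
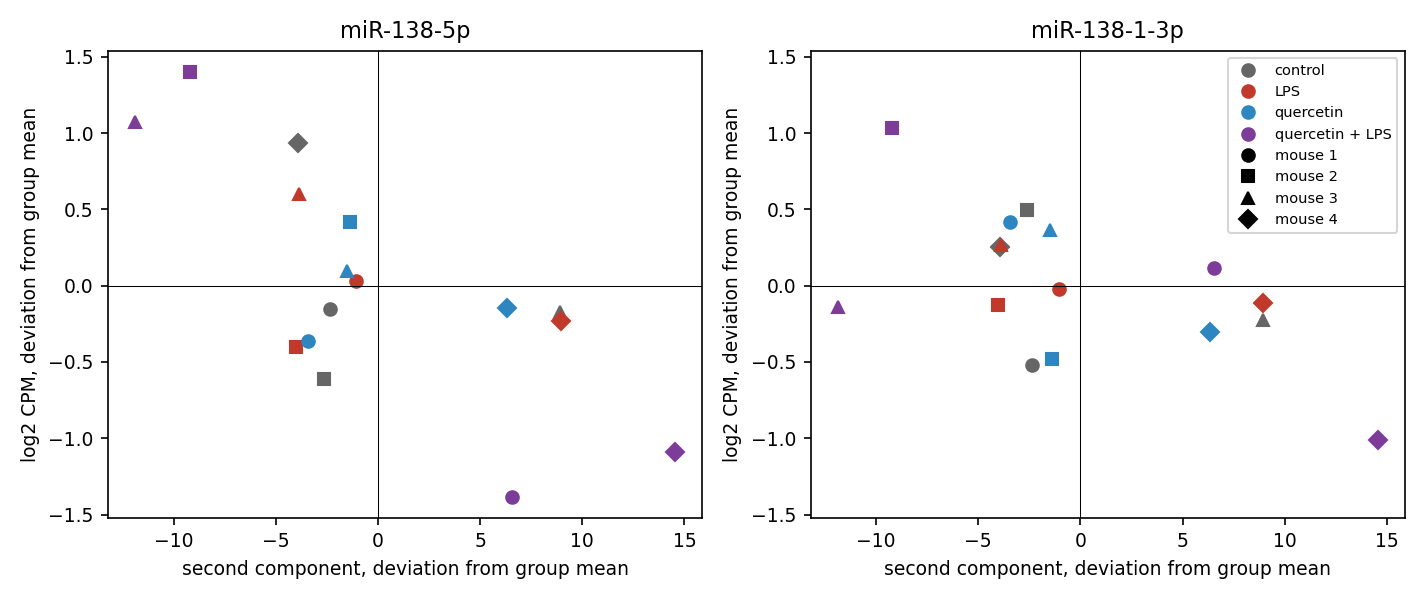
Deviation of miR-138-5p and miR-138-1-3p from their group means (log2 CPM) against the deviation on the second principal component, 1 point per library, colours for groups and symbols for mice. The quercetin plus LPS libraries of mice 1 and 4 lie at the lower right for miR-138-5p, and those of mice 2 and 3 at the upper left.

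Other miRNAs enriched in neurons did not share one direction. Of 28 listed, 26 were in the table and 16 were tested. With quercetin, where edgeR called 8.98% of all tested miRNAs lower and 6.87% higher, it called 5 of the 16 lower: miR-132-3p, miR-132-5p, miR-212-3p and miR-212-5p, from a cluster induced by CREB, and miR-7a-5p (log2 fold change -1.52 ± 0.36, adjusted p = 0.009). It called 1 of the 16 higher, miR-129-5p (2.45 ± 0.42, adjusted p = 8.52e-04). The list's median was -0.33, against -0.05 over all tested miRNAs. Those 5 were also the members called lower in quercetin plus LPS against LPS, where 14.3% of all were called lower and the median was 0.02 against -0.13 over all. With LPS, where edgeR called 0.528% of all tested miRNAs, 1 of the 16 was called, miR-129-5p, higher (2.15 ± 0.42, adjusted p = 0.0179), and the median was 0.02, as over all. In quercetin plus LPS against quercetin 0 of the 16 were called by edgeR or by DESeq2, and 0 had an unadjusted p under 0.05. miR-9-5p lay at 0.17 ± 0.24 with quercetin and at 0.50 ± 0.24 in quercetin plus LPS against LPS (edgeR adjusted p = 0.138). There DESeq2 called 1 of the 2 tested miRNAs from a list of 5 chosen as neuron markers, miR-9-5p and miR-9-3p (-0.02 ± 0.33 by edgeR). The others on that list, miR-124-3p, miR-137-3p and miR-153-3p, had too few counts to be tested.

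Erythroid markers rose beside the lower miR-138 with quercetin. Of 6 listed erythroid miRNAs, miR-486a-5p and miR-486b-5p hold identical counts in the table and are counted once. Of the 5 distinct ones edgeR called 4 higher in both quercetin comparisons, against 6.87% and 8.63% of all tested miRNAs. Their summed level lay between 398 and 894 CPM in controls and between 2585 and 6650 CPM with quercetin. With LPS it lay between 443 and 1409 CPM, and with quercetin and LPS between 1268 and 3042 CPM. Most of the erythroid sum was miR-486a-5p (378 to 6471 CPM over all libraries). Of 17 stromal, endothelial and epithelial miRNAs, 16 are distinct (miR-199a-3p and miR-199b-3p hold identical counts), 14 of these were tested and edgeR called 5 higher in quercetin plus LPS against LPS. With quercetin alone it called 0, as did DESeq2, while 2 had an unadjusted p under 0.05. Their sum ran from 346 to 683 CPM in controls, 278 to 370 with LPS, 404 to 1538 with quercetin and 509 to 4798 with quercetin and LPS. The upper end of the last range came from mouse 2, where miR-143-3p alone reached 4317 CPM. With both identical rows counted, the sum in mouse 2 was 4920 CPM, against 536, 672 and 1195 CPM in mice 1, 3 and 4. Of 4 lymphocyte miRNAs edgeR called 1 lower in quercetin plus LPS against LPS, and of 6 myeloid miRNAs 1 lower with quercetin alone, where 14.3% and 8.98% of all tested miRNAs were called lower. Lymphocyte sums lay between 78015 and 151621 CPM and myeloid sums between 51531 and 104537 CPM over all libraries. Most of the lymphocyte sum was miR-181a-5p (71987 to 144327 CPM), while miR-150-5p lay at 374 to 1023 CPM. Most of the myeloid sum was miR-155-5p (22196 to 68265 CPM) and miR-142a-5p (15908 to 36329 CPM). The sums therefore do not measure how many cells of each type were present. In bulk libraries fewer cells of a type and less RNA per cell cannot be told apart, and the part of these cells in the level of miR-138 was not tested.

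The table holds some rows whose counts look exchanged with a neighbour in quercetin libraries, so the rows around each arm were read. The row before miR-138-5p, miR-7236-5p, holds text among its counts without quercetin and at most 2 counts with quercetin. The row after, miR-6920-5p, holds 0 to 3 in all libraries. miR-138-1-3p stands between miR-335-3p (1 to 12 counts without and 3 to 36 with quercetin) and miR-326-5p (at most 14), and miR-138-2-3p between miR-7026-3p (at most 3) and miR-5128 (1 to 20). The rows next to miR-138-5p thus held at most 3 counts with quercetin, and rows further away were not read for this. The part of misplaced rows in the miR-138 levels was not tested.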

How the data were processed

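The deposited table holds read counts per mature miRNA, not normalised, for 16 libraries (TruSeq Small RNA, per the labels). The submitters' processing notes name cutadapt and mm9; aligner, versions and counting rule are not given in the sources used here, so reads of the similar 3p arms could be shared if mismatches were allowed. Counts of 4 names on 2 rows were summed. The row with text and 4 rows with exchanged-looking neighbours (10-fold in opposite directions) were left out, leaving 1372 names. The fitting code was first run on simulated counts with the same spread for every miRNA and no mouse effect. That run does not show how the fit performs at the spread seen here. edgeR 4.0.16 (R 4.3.3) was fitted to all libraries by group after filterByExpr and TMM, with Benjamini-Hochberg adjustment over 568 miRNAs and a threshold of 0.05. Of these names, 19 repeat the counts of another. They stayed in the fit and were not merged among the paired arms, while lists count them once. SE is the log2 fold change over the root of F. Correlations and components used log2 CPM with a prior count of 2. DESeq2 1.42.0, limma 3.58.1 (voom), other scalings, no filter, a mouse block, the omitted rows and leaving out libraries were alternatives.

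The series design names 4 mice, and the numbers 1 to 4 in the labels' titles were read as the mouse. Deviations from group means correlated at a mean of 0.14 over 24 same-mouse pairs and -0.04 over 72 others. Within groups no libraries were near duplicates.

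Members, lists and the rule for named miRNAs (the members, their table neighbours, the 5 and 3 closest by r, blood-cell miRNAs, called or defining neuronal miRNAs) were chosen with earlier results of these data known. Of 1377 names, 1160 matched a RefSeq mature sequence, all 3 members among them. RefSeq coordinates are GRCm38.p6 and were not combined with mm9.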

Additional observations from a re-analysis of the deposited data

Results flagged for a closer look

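Of 20 group values examined for a sample far from the other 3, 1 stood out: miR-138-2-3p in LPS replicate 3, at 0.555 CPM, against 0.674 to 0.690 CPM in the other mice. It rests on 7 counts, beside 6 to 8 in the others, and chance alone marks about 1 group in 20.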

How the results depend on the processing

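miR-138-5p and miR-138-1-3p lay lower in both quercetin comparisons, and miR-138-1-3p in LPS against control, under each of 27 alternatives. For miR-138-5p the log2 fold change ran from -2.52 to -1.86 without LPS and from -2.70 to -1.56 with LPS; for miR-138-1-3p from -2.30 to -1.96 and from -1.64 to -0.82, and with LPS from -1.79 to -1.47. The LPS and interaction tests of miR-138-5p passed under none of them but changed sign under some. The interaction is the difference between contrasts that chose this arm, so nothing is concluded from it. Quercetin plus LPS against quercetin (-0.35) ran from -0.77 to 0.0548 without single libraries, above 0 without quercetin plus LPS 1 or 4. The interaction (0.08) ran from -0.28 to 0.55 without single libraries, below 0 without control 4 or quercetin plus LPS 2 or 3. Over the 11 other alternatives it ran from -0.46 to 0.77. Among these it was below 0 by limma-voom (-0.46), with the mouse as a replicate block (-0.0317) and without the 7-week-old mouse (-0.19). Leaving out that mouse also turned LPS against control to 0.07795. With the block no LPS or interaction test of miR-138-5p passed either, and 3, 92, 144 and 2 miRNAs were called in the order of comparisons below. miR-138-2-3p, at -0.16 with quercetin, ran from -0.52 to 0.35. Without single libraries the number of miRNAs called ran from 0 to 5 in LPS against control, 54 to 99 in quercetin against control, 80 to 141 in quercetin plus LPS against LPS and 2 to 7 in quercetin plus LPS against quercetin (3, 90, 130 and 2 with all). In this order of comparisons, the counts moved by over 1.5 times without any 1 control, LPS 1 or 2, or quercetin plus LPS 4, then without quercetin 3 or 4, then without LPS 1 or 2, and last without quercetin 4 or quercetin plus LPS 2. LPS against control had 1 call by library size and 6 by DESeq2, and quercetin plus LPS against quercetin 4 by DESeq2. Without the 7-week-old mouse the counts were 0, 46, 79 and 1, and without the library of each group highest on the second component the first 2 were 0 and 45; without quercetin plus LPS 1 as well, LPS against control had 5 calls and quercetin plus LPS against quercetin 1, where miR-138-5p went to 0.33. Fewer samples enter these fits. With upper quartile scaling the overall median fold change with quercetin went from -0.05 to 0.15, and calls split 48 higher and 29 lower (39 and 51 with TMM); quercetin plus LPS against LPS split 49 and 81 with TMM, 67 and 66 with RLE, 71 and 54 with upper quartile, 75 and 50 with library size scaling, and 81 and 77 by DESeq2. The 7-week-old mouse and the 4 or 5 libraries were left out after seeing the data. Depth limits miR-138-2-3p, at 2 to 19 counts, and miR-138-1-3p after quercetin, at 3 to 23.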
